A study of Rattus norvegicus with 6 samples.

Results

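The genes described here encode the proteins of the mitochondrial ribosome. They were taken as the genes whose array name starts with Mrpl or Mrps followed by a number, and each was represented by its brightest probe. This gave 73 genes of 22094 gene names on the array, measured by 84 probes on 18 chromosomes of the rn4 genome. Of the 73 genes, 47 belong to the large subunit and 24 to the small subunit. The other two are Mrps36, whose current name is Kgd4 and which encodes a component of the 2-oxoglutarate dehydrogenase complex rather than a ribosomal subunit, and Mrps21l, which was not assigned. Mrps30 and Mrps18a were counted with the large subunit, where the structures of the mammalian particle place their products.

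Mitochondrial ribosomes translate the few proteins that mitochondrial DNA encodes, all of them core subunits of the oxidative phosphorylation complexes. Their RNAs come from the mitochondrial genome, whereas every protein of the particle is encoded in the nucleus, made in the cytosol and imported. Compared with the bacterial ribosome, the mammalian particle has less RNA and more protein, including many proteins that bacteria lack. Cardiac muscle relies on oxidative phosphorylation, and mutations in several of these genes cause cardiomyopathy in humans.

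Gene expression was measured in the whole heart primordium of Wister rat (the label's spelling of Wistar) embryos at E10, before and after the heart starts to beat. The pre-heartbeat group held primordia with a flat center and the post-heartbeat group primordia with a raised center, from embryos with slightly more somites. Each group had 3 arrays of separate biological replicates, neither group was treated or carried an engineered allele, and whether a sample pooled several embryos was not given in the sources used here. The beating state was assigned from shape, the first and second heart fields were not separated, and in such bulk tissue fewer cells of a type and less RNA per cell cannot be told apart.

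All 10 cardiac muscle markers, among them the troponin gene Tnnt2 and the cardiac transcription factor gene Nkx2-5, were measured above background, and their mean log2 signal was 2.27 to 2.57 in the pre-heartbeat group and 2.88 to 2.95 in the post-heartbeat group. Of the neural ectoderm markers, 2 were measured, and their mean was 0.59 to 1.41 before and -0.05 to 0.39 after the heartbeat. Among them Otx2, a forebrain regulator, fell by 1.56 on the log2 scale (limma adjusted p = 0.0199), whereas the other differed by -0.21 without a call. In the methods' selection were also the myosin genes Myh6 (0.92) and Myh7 (1.11) and Epor, the erythropoietin receptor (1.26), whose limma adjusted p was 0.285, 0.115 and 0.115. When the slide was a block, all 3 passed the threshold (limma adjusted p = 0.0324, 0.0223 and 0.0397). The medians of the endothelial, endoderm, paraxial mesoderm, erythroid and proliferation markers were -0.20, -0.35, 0.19, 0.24 and -0.11, and limma called 0 of them without the slide in the model. With the slide as a block, Epor was called among them and the endothelial median was 0.06. Of the 4 erythroid markers measured, 2 were higher and 2 lower, from -0.61 to 1.26 without the slide in the model. The part of the tissue makeup in the values below was not tested. Here and below, the log2 signal is the processed signal of a probe relative to the 75th percentile of its array, and differences are post-heartbeat minus pre-heartbeat.

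Some sequence features, which the choice by name did not use, were more frequent in the promoters of these genes than over all genes. RefSeq promoters on GRCr8, each from 250 bases before to 50 bases after a transcription start, were matched for 59 of the 73 genes. They held a median of 18 CpG dinucleotides, against 7 over the promoters of all 27457 genes in the table, and their median GC content was 55.7% against 52.3%. The core CCGGAAG of the ETS family, to which the nuclear respiratory factor GABP belongs, was found on either strand in 18 of the 59 promoters (30.5%) and in 9.22% of all promoters. The YY1 core AAGATGG was found in 15 (25.4%, against 7.29% of all), the NRF-1 core GCGCATG in 6 (10.2%, against 3.94%) and the GC box GGGCGG in 29 (49.2%, against 34.9%). These counts include matches that reach into the 50 bases after the start. For most of the 15 genes with the YY1 core, and for some of the 18 with the ETS core, no match lay wholly before the start. None of the 4 motifs contains another, although their sites can overlap. Of the 59 promoters, 30 held any of the ETS, NRF-1 and YY1 cores, against 18.5% of all. No comparison was made with the promoters of other genes measured above background here. A match of letters is a description and not a bound site, and CpG-rich promoters offer more chances for motifs that hold CG.

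Promoter stretches before the start are shown for the genes with the highest and the lowest log2 fold change among those with a promoter in the table and for the gene with the most kinds of motif in this stretch. Each is given 5′ to 3′ on the strand of its gene, with the letters that match a motif on either strand in capitals.
Mrps15 (chr5:143605891-143606140, plus strand): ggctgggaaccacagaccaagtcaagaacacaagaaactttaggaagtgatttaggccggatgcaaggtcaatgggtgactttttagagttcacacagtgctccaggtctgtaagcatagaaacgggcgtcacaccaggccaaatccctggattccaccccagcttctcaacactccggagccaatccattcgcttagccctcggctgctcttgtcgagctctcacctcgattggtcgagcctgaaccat
Mrps7 (chr10:101342392-101342641, plus strand): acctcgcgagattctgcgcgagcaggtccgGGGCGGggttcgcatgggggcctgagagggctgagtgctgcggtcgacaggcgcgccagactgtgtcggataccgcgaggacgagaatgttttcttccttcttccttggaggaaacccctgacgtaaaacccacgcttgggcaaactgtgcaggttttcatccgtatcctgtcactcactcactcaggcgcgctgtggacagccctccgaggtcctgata
Mrpl32 (chr17:55260401-55260650, plus strand): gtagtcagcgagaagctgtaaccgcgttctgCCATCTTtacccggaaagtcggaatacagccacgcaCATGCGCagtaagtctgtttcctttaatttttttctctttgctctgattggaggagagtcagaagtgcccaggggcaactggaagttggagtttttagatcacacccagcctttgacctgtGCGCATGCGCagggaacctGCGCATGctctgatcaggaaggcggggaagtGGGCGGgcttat

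Mrps15, at the top of the range of differences, held none of the motifs in its stretch, and Mrps7, at the bottom, held a GC box. Mrps7 also counts among the genes with a YY1 core, through a match that does not lie wholly in the stretch shown. Mrpl32 encodes a large-subunit protein whose processing is linked to particle assembly. Its stretch held a YY1 core, a GC box and several NRF-1 cores, of which only some overlap as a palindrome. Over the 59 genes, the median log2 fold change was -0.07 for the 18 genes with the ETS core and -0.04 for the 41 without it. It was -0.06 for the 15 genes with the YY1 core and -0.04 for the 44 without it, and -0.08 for the 6 with the NRF-1 core and -0.04 for the 53 without it. For the GC box the order was the other way, with -0.04 for the 29 genes with it and -0.07 for the 30 without it. None of these differences was tested.

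For the comparison between the groups, 72 of the 73 genes passed the filter on dim probes, and all 72 were well above background on all 6 arrays. The exception was Mrps28, a small-subunit gene, whose probe was not well above background on any array (log2 signals of -8.43, -7.65 and -7.04 before and -7.43, -8.05 and -6.52 after the heartbeat).

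No transcript of the mitochondrial ribosome was called as changed when the heart began to beat. By limma, with an adjusted p under 0.05 as the threshold, 0 of the 72 genes rose and 0 fell, against 0.119% of all 19299 tested probes that rose and 0.0207% that fell. The adjusted p of the 72 genes was between 0.866 and 0.997. At an unadjusted limma p under 0.05 there were 0 as well, against 7.01% of all probes, and the lowest unadjusted limma p was 0.235. The methods' test without a fold threshold also gave 0, against 6.83% of all probes. The selection of the study's methods, at least 1.5 fold with an unadjusted p under 0.05, took 0 of the 72 genes, against 1.89% of all probes higher and 1.15% lower. When limma took the slide as a block, 0 were called, against 1.16% of all probes higher and 0.461% lower, and 0 had an unadjusted p under 0.05, against 9.66% of all probes.

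The differences were small and mostly just below 0. The median log2 fold change of the 72 genes was -0.05, beside -0.03 over all tested probes, and 21 of 72 were positive, against 44.7% of all probes. The differences ran from -0.25 for Mrps7 to 0.25 for Mrps15, and their middle range between the quartiles was -0.09 to 0.00, against -0.17 to 0.16 over all probes. For 64 of the 72 genes the difference was smaller than its limma standard error, as it was for 60.2% of all probes. Among the other genes near the ends of the range, the large-subunit genes Mrpl49, Mrpl36 and Mrpl9 differed by 0.12, 0.12 and 0.10, and Mrps18a, Mrpl27, Mrps18b and Mrpl54 by -0.21, -0.15, -0.15 and -0.14. With the slide as a block, Mrps18a and Mrpl27 differed by -0.12 and -0.08.

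**Figure D1:**
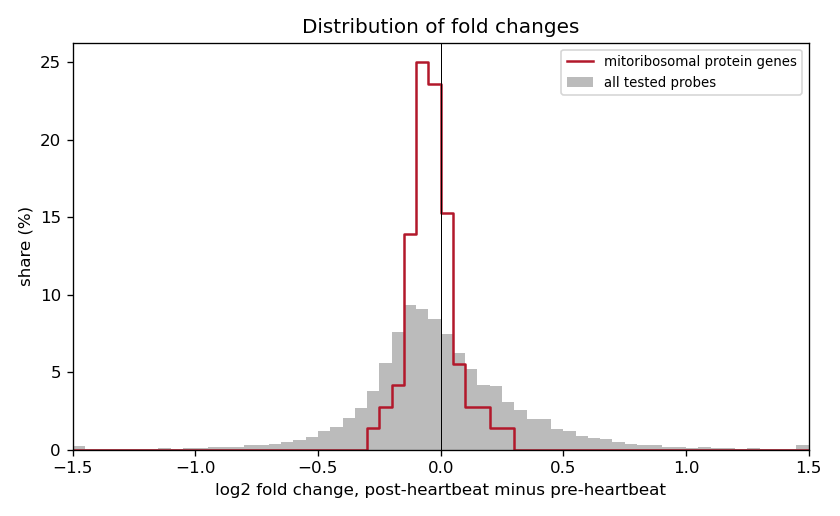
Share of features (y axis, %) by log2 fold change between the post-heartbeat and the pre-heartbeat group (x axis), for the 72 tested mitoribosomal protein genes (red line) and all 19299 tested probes (gray bars). The values behind the red line run from -0.25 to 0.25, with most genes just left of 0, and gray probes beyond 1.5 on either side are counted in the outermost bars.

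How much change the arrays could have missed is given by the intervals of the differences. The 95% limma interval lay wholly within a change of 1.5 fold in either direction for 64 of the 72 genes, against 43.1% of all probes, and for 68 of the 72 genes with the slide as a block, against 67.8% of all probes. The median half-width of the interval was 0.34 on the log2 scale for these genes and 0.45 over all probes. The 8 genes with wider limits were Mrps15, Mrpl47, Mrpl4, Mrpl43, Mrps10, Mrps18a, Mrpl52 and Mrps7, and for them these arrays leave a change of 1.5 fold within the interval. Without the slide in the model, the interval also lay within 1.5 fold for 71 of 74 nuclear genes of oxidative phosphorylation. Among cytosolic ribosomal genes it did for 31 of 46 of the large and 25 of 32 of the small subunit. The mean log2 signal per array was 1.40 to 1.66 for the 72 genes and -1.05 to -0.98 for all tested probes. The part of signal level in the interval widths was not tested.

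**Figure D2:**
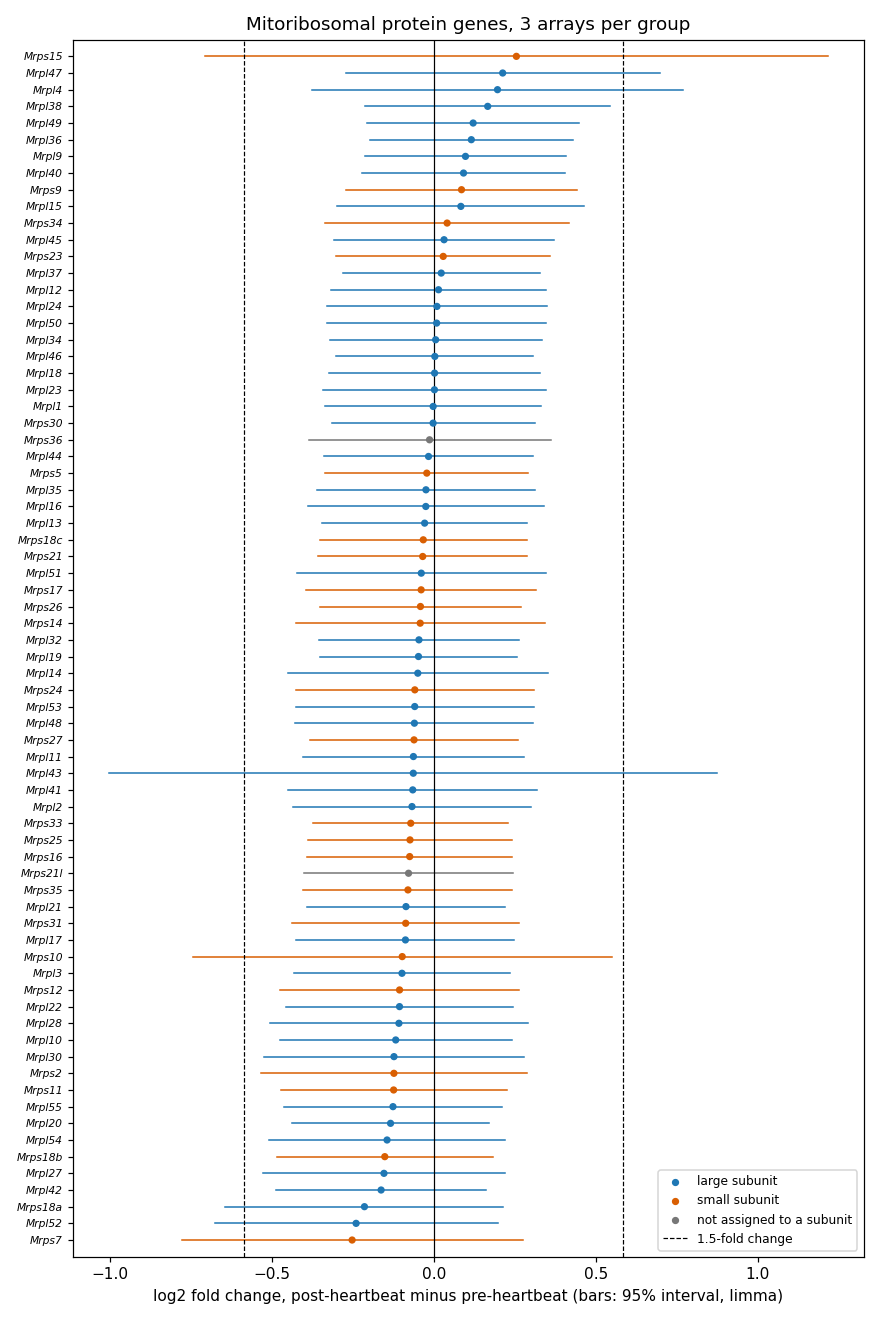
Log2 fold change (x axis) of each of the 72 tested genes (y axis, sorted), with its 95% limma interval as a bar, from 3 arrays per group. Blue marks the large subunit, orange the small subunit and gray the genes assigned to neither. All 72 intervals include 0, and 64 lie between the dashed lines at 1.5 fold.

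By subunit, the median log2 fold change was -0.04 for the 47 genes of the large subunit, of which 17 were positive, and -0.06 for the 23 tested genes of the small subunit, of which 4 were positive. The large-subunit proteins with a bacterial counterpart had a median of -0.05 over 29 genes, and those found only in mitochondria had -0.03 over 18 genes. In the small subunit, the medians were -0.05 over 14 genes with a bacterial counterpart and -0.07 over 9 genes without one. The difference between these classes was not tested.

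The large subunit has a stalk that recruits translation factors, with proteins encoded by Mrpl10, Mrpl11, Mrpl12 and Mrpl53, and a separate L1 stalk where transfer RNAs leave, with the product of Mrpl1. The median log2 fold change of these 5 genes was -0.06, and that of Mrpl1 was -0.00204. Mrpl12, which encodes the stalk protein that also binds the mitochondrial RNA polymerase, had log2 signals of 4.37, 4.65 and 4.50 before and 4.59, 4.50 and 4.46 after the heartbeat. The groups overlapped throughout (log2 fold change 0.01, 95% interval -0.32 to 0.35). Mrpl10, which anchors Mrpl12 to the particle, had signals of 6.28, 6.60 and 6.53 before and 6.44, 6.22 and 6.39 after (log2 fold change -0.12, interval -0.48 to 0.24). A dimmer probe of Mrpl10 lay between -1.34 and -0.90.

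The central protuberance, which contacts the transfer RNAs and the small subunit, was represented by 8 genes with a median of -0.03, and 4 of them were positive. Of these, Mrpl52 was at -0.56, 0.05 and -0.37 before and -0.57, -0.45 and -0.58 after the heartbeat, and the second pre-heartbeat array alone stood above the rest by more than 0.4. Its log2 fold change was -0.24, with an interval of -0.68 to 0.20. The unadjusted p of Mrpl52 was the lowest of all members (limma adjusted p = 0.866). Mrpl38 moved the other way without a call, from -1.95, -2.16 and -2.09 to -1.72, -1.85 and -2.13 (log2 fold change 0.17, interval -0.21 to 0.54, and 0.08 with the slide as a block).

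Around the exit of the peptide tunnel, where new chains enter the inner membrane, 7 genes had a median of 0.00. Mrpl47 had signals of -5.46, -5.21 and -5.34 before and -5.23, -5.42 and -4.73 after the heartbeat, and the third post-heartbeat array stood above the other 5 (log2 fold change 0.21, interval -0.27 to 0.70, and 0.34 with the slide as a block). The probe of Mrpl47 was dim, and its difference was 0.04 with another background correction (normexp). Mrpl44 and Mrpl45, which line this region, differed by -0.02 and 0.03.

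In the small subunit, the ends of the range were held by 2 proteins of the conserved core. Mrps7, a protein of the head of the small subunit, was at 2.40, 3.15 and 2.95 before and 2.51, 2.45 and 2.79 after the heartbeat. Its first pre-heartbeat array lay below every post-heartbeat array, and the log2 fold change of -0.25 had an interval of -0.78 to 0.27 (limma adjusted p = 0.866). It was -0.09 when the slide was a block, and Mrpl52 (-0.19) was then the lowest member. Mrps15 was at 0.05, 0.02 and -0.59 before and 0.58, 0.52 and -0.86 after, and in both groups the third array was the lowest. Its log2 fold change of 0.25 (interval -0.71 to 1.22) became -0.03 with the slide as a block. The Mrps15 probe lies at chr5:145408255-145408314 and the Mrps7 probe at chr10:105686811-105686870 on rn4.

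For 2 genes the groups did not overlap, and both genes were lower after the heartbeat, against 6.14% of all probes that were lower, 5.38% that were higher and 11.5% in either direction. Mrpl20, a large-subunit protein close to the ribosomal RNA, was at 3.47, 3.60 and 3.54 before and 3.41, 3.46 and 3.35 after the heartbeat. The fall of 0.13 on the log2 scale, or 0.912 fold, had an interval of -0.44 to 0.17 (limma adjusted p = 0.866). An exact two-sided permutation test, which has 10 ways to split the arrays, gave it a p of 0.1. This is the smallest that 3 arrays against 3 allow, and every gene without overlap receives it. Mrpl42, a protein found only in mitochondria, was at 1.23, 1.49 and 1.29 before and 1.23, 1.13 and 1.16 after, and the lowest pre-heartbeat and the highest post-heartbeat value were equal to 2 decimals. Without overlap, both genes are necessarily lower within each slide, and the differences were -0.04 and -0.22 for Mrpl20 and -0.05 and -0.23 for Mrpl42.

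Genes of the particle in which mutations cause cardiomyopathy in humans were near 0. Mrpl3, next to the peptidyl transferase center, was at -0.32, -0.01 and -0.10 before and -0.27, -0.22 and -0.24 after the heartbeat (log2 fold change -0.10, interval -0.43 to 0.23). Mrpl44 was at 1.38, 1.62 and 1.47 before and 1.41, 1.53 and 1.498 after (log2 fold change -0.02, interval -0.34 to 0.31). Mrps14 was at -0.39, 0.07 and -0.22 before and -0.29, -0.22 and -0.14 after (log2 fold change -0.04, interval -0.43 to 0.34). In all 3 genes the pre-heartbeat arrays enclosed the post-heartbeat arrays. Mrps22, which the array lists under an older name and which is therefore not among the 73, differed by -0.07 (SE 0.16). Mrpl57 and Mrpl58, also listed under older names, differed by -0.04 (SE 0.17) and 0.07 (SE 0.14).

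More of the variation of these genes lay among the pre-heartbeat arrays than between the groups. Averaged over the 72 genes, the log2 signal of the pre-heartbeat arrays was 1.40, 1.66 and 1.54 (1.54 ± 0.132, SD, n = 3) and that of the post-heartbeat arrays 1.51, 1.51 and 1.48 (1.4989 ± 0.0129, SD, n = 3). The first pre-heartbeat array held the lowest value of 40 genes, against 24.5% of all probes, and the second held the highest value of 50 genes, against 38.7% of all probes. The SD among the pre-heartbeat arrays was above that among the post-heartbeat arrays for 59 of the 72 genes, against 60.3% of all probes, with a median SD of 0.148 before and 0.0735 after the heartbeat. The 75th percentile to which the signals were set was 1692, 1146 and 1481 intensity units before and 1268, 1412 and 1702 after the heartbeat, and its part in these values was not tested.

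**Figure D3:**
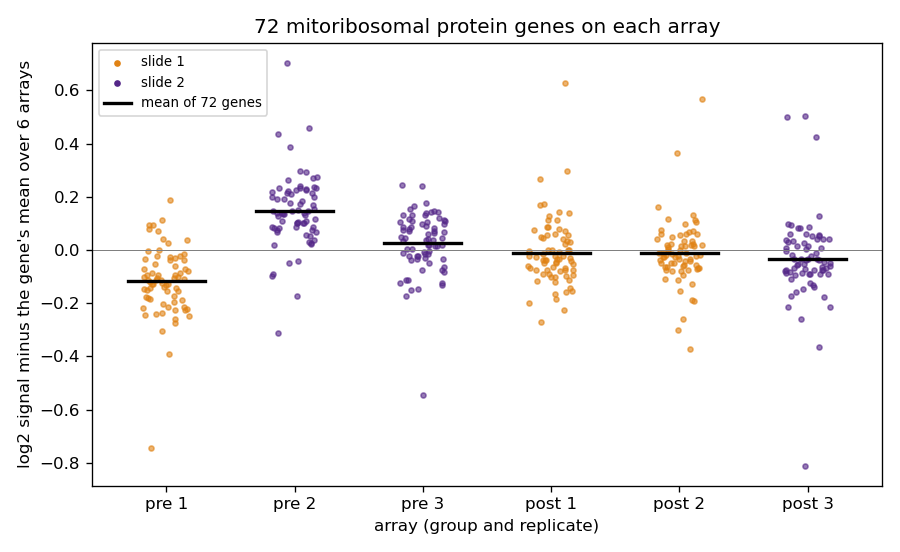
Log2 signal of each of the 72 genes minus its mean over the 6 arrays (y axis) on each array (x axis), with the mean of the genes as a black line and the slide by color. The line is lowest on the first pre-heartbeat array (-0.12), highest on the second (0.15) and between -0.03 and 0.03 on the other 4 arrays.

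The genes moved together across the arrays. Over the 6 arrays, the correlation of a gene with the mean of the other members had a median of 0.79, and 36 of 72 genes were above 0.8, against 15.9% of all probes, whose median was 0.29. The correlation was below 0 for 9 genes, with the lowest value for Mrps30 (-0.73), followed by Mrpl4, Mrpl9 and Mrpl38. The arrays share their normalization and slide with every gene, so these correlations describe the 6 arrays and carry no test.

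Both slides held arrays of both groups, the first the arrays pre 1, post 1 and post 2 and the second the arrays pre 2, pre 3 and post 3. Within the first slide 64 of the 72 genes were higher after the heartbeat, with a median difference of 0.09, and within the second 61 were lower, with a median of -0.14. The direction thus differed between the slides for 57 genes, 9 were higher and 6 lower in both, and with the slide as a block the median log2 fold change was -0.01, with 29 genes positive. The first slide held a single pre-heartbeat array and the second a single post-heartbeat array, so each within-slide difference rests on that array. The same counts over all tested probes were not made, so these counts cannot be read as particular to the 72 genes. As the genes moved together, they are also not independent counts.

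Between the slides, 3 of the 72 genes differed at a limma adjusted p under 0.05 with the group in the model. Of all probes, 7.57% were higher and 8.75% lower on the second slide. Mrps10, a small-subunit protein, was at -3.28, -3.15 and -3.19 on the first slide and -2.59, -2.64 and -2.46 on the second (difference 0.69, adjusted p = 0.0122). Mrpl43 was higher by 0.98 on the second slide (adjusted p = 0.0141), and Mrpl4, a protein near the tunnel, was lower by 0.56 (-0.56, adjusted p = 0.0320). The slides were also scanned separately and held different samples. Slide, scan and differences between the samples on each slide cannot be told apart.

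**Figure D4:**
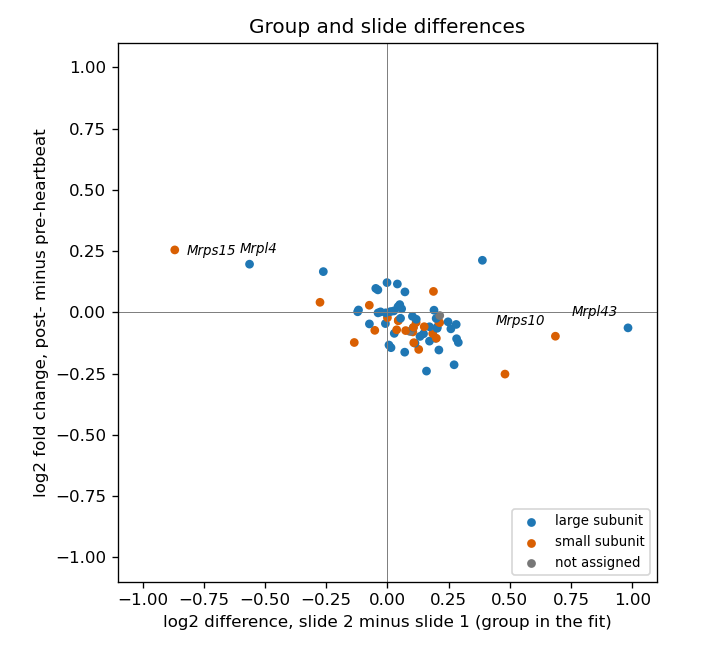
Log2 fold change between the groups (y axis, no slide in the model) against the log2 difference between slide 2 and slide 1 (x axis, group in the model) for the 72 genes, on equal scales, colored by subunit. Mrps10, Mrpl43 and Mrpl4, the genes called for the slide, and Mrps15 spread to the sides, whereas up and down the genes stay between -0.25 and 0.25.

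A second probe was a check on the first for the 10 genes with 2 tested probes. Their log2 fold changes differed by a median of 0.08, with the same sign for 6 genes and the opposite sign for Mrpl2, Mrpl35, Mrpl40 and Mrps21. The widest gap was at Mrpl40, with 0.09 for the brighter probe and -0.21 for the other, and both probes were correlated at -0.40 over the 6 arrays. For Mrpl10, Mrpl41, Mrpl54 and Mrps16 the correlation between the probes was 0.95, 0.96, 0.96 and 0.93. The signal level could still differ widely, with 6.22 to 6.60 for the brighter and -1.34 to -0.90 for the other probe of Mrpl10. For Mrpl41 the levels were close (2.20 to 2.68 and 2.22 to 2.61).

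Among other genes of mitochondrial translation, the list medians were near 0, whereas single genes ranged more widely. The median log2 fold change was -0.01 over 17 translation factors, 0.00 over 19 aminoacyl-tRNA synthetases of mitochondria and -0.04 over 20 assembly factors of the particle, and 0 of these passed the limma threshold in either direction. The ranges were -0.23 to 0.23, -0.34 to 0.68 and -0.31 to 0.37, the interval lay within 1.5 fold for 13, 15 and 14 genes, and 1 assembly factor had an unadjusted p under 0.05. Over 6 ribosomal subunits with names of other kinds, such as Dap3 and Ptcd3, the median was -0.06, with 2 positive. Over 17 genes of mitochondrial DNA upkeep, transcription and their regulation, the median was -0.05, with a range of -0.36 to 1.14. The interval lay within 1.5 fold for 7 of the 17. Among the 17, Ppargc1b, a coactivator of mitochondrial genes, was in the methods' selection. It was at -5.0004, -5.74 and -4.68 before and -4.01, -4.04 and -3.95 after the heartbeat, without overlap (log2 fold change 1.14, SE 0.27, limma adjusted p = 0.237). Its probe was dim, beside array medians of -1.38 to -1.27 over all tested probes.

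The cytosolic ribosome makes the proteins of its mitochondrial counterpart, and 0 of its genes were called. The 46 genes of its large subunit and the 32 of its small subunit had medians of -0.15 and -0.13, with 0 of the 78 positive, but these values depended on the scaling and on single arrays. With quantile normalization the medians were -0.018 and -0.0013, with 13 of 46 and 16 of 32 genes positive, and with the slide as a block they were -0.057 and -0.047. Without pre-heartbeat replicate 2 they were -0.029 and -0.015, with 8 and 9 genes positive, and without pre-heartbeat replicate 1 they were -0.30 and -0.27. The cytosolic values carried the same split by slide, with a mean difference of 0.12 and -0.23 for the large subunit and 0.16 and -0.26 for the small subunit within the first and second slide. The nuclear genes of oxidative phosphorylation, whose products assemble with those made on mitochondrial ribosomes, had a median of 0.03 over 74 genes, with 40 positive. The mean signal of the mitoribosomal genes over the 6 arrays followed that of the cytosolic ribosomal genes (r = 0.94) and that of the oxidative phosphorylation genes (r = 0.94), on arrays that share their normalization.

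**Figure D5:**
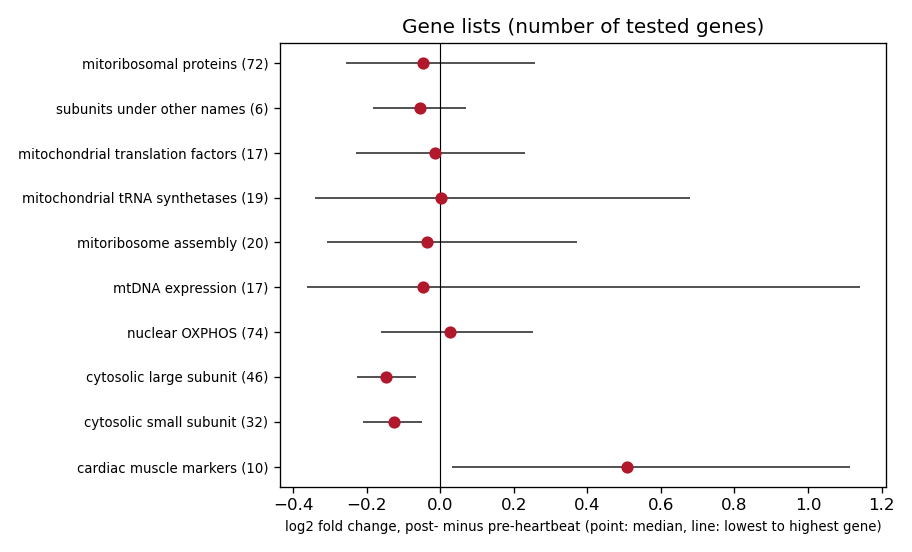
Median log2 fold change (point) and the lowest to highest gene (line) of each gene list, post-heartbeat minus pre-heartbeat (x axis), with the number of tested genes in parentheses. The mitoribosomal proteins lie at -0.05 with a range of -0.25 to 0.25, the cytosolic subunits at -0.15 and -0.13 (-0.018 and -0.0013 with quantile normalization) and the cardiac muscle markers at 0.51.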

How the data were processed

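Total RNA of 6 heart primordium samples, 3 per group, was labeled with Cy3 and hybridized by the authors to 1-color Agilent rat arrays, and the deposited processed signal of each spot is a background-subtracted intensity from Agilent Feature Extraction 10.7.3.1, as named in the submitters' processing notes. The authors also deposited a ratio per probe, for which GeneSpring applied a 75th percentile shift and a baseline transformation, which was used here as an alternative.

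Control and outlier spots were left out, log2 intensities were set relative to the 75th percentile of each array, and spots of a probe were averaged. A probe was tested if every array of a group measured it well above background, which 19299 of 30367 probes met. The test was limma 3.58.1 (R 4.3.3, tables read by data.table version 1.17.8), with Benjamini-Hochberg adjustment over all of them and a threshold of 0.05. The procedure was tested on simulated data. The methods' selection used the Tukey HSD test, which with 2 groups is a pooled comparison of the group means. Precision is limited by having 3 arrays per group, and nothing states that the replicates came from separate litters. The p-values thus measure the spread between these samples, which limma moderates toward the spread over all tested probes. For a gene with a tight spread this widens the SE and the interval. For Mrpl20 the unadjusted p was 0.332 by limma and 0.0557 by the methods' test.

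Of the 73 genes, 67 were matched by accession to the RefSeq gene table, and promoters were matched by gene ID for 56 and by symbol for 3. Motifs and figures were made with Python 3.11.15, pandas 2.3.3 and matplotlib 3.10.9.

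The members, gene lists and tests were chosen with earlier results of these data known, and the lists were written from general knowledge. Named genes were members called by any test without or with the slide, the 8 highest and 8 lowest differences, the cardiomyopathy genes, genes whose probes differ in sign and genes not tested. Of these, the text gives those that matter in full. Genes described by role, Mrpl10, Mrpl12, Mrpl32, Mrpl45, the genes called for the slide, those with the widest intervals and those with low correlations were added after their values had been seen. Alternatives covered blocks for replicate number or slide, other background correction (normexp, offset 50), normalization, filters, moderation, test and fold threshold, the mean of a gene's probes, the authors' ratios and leaving out each array. The counts of intervals within 1.5 fold and of unadjusted p were added after the values had been seen.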

Additional observations from a re-analysis of the deposited data

How the results depend on the processing

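No mitoribosomal gene was called by limma or the methods' selection under any alternative run. Their median log2 fold change was between -0.06 and -0.01 with all arrays, and between -0.12 (without pre-heartbeat replicate 1) and 0.01 (without pre-heartbeat replicate 2, when 42 genes were positive) on leaving out an array. The number of intervals within 1.5 fold was 63 to 68 with all arrays and 48 to 66 on leaving out an array, the lowest without post-heartbeat replicate 2. The number at an unadjusted limma p under 0.05 was 0 to 2 on leaving out an array, namely Mrps7 and Mrps18a without pre-heartbeat replicate 1 (-0.47 and -0.38, adjusted p = 0.384 for both) and Mrps15 without post-heartbeat replicate 3 (0.72, adjusted p = 0.332). The replicate block left the members at 0 calls and all probes at 95 higher and 49 lower, against 23 and 4 without it. Deviations of same-numbered arrays were correlated at 0.648, -0.277 and 0.494, and pre-heartbeat replicate 2 was closest to post-heartbeat replicate 3. Between the groups, correlations were 0.494 to 0.648 for arrays on the same slide and -0.728 to -0.277 for arrays on different slides. They follow the slide and therefore cannot show whether the numbers pair the samples. All-probe counts were 223 and 89 with the slide block, 43 and 7 with normexp, 38 and 7 with an intensity trend, 1 and 0 without a filter, 0 and 0 for the methods' test after Benjamini-Hochberg, and 0 to 1 in either direction on leaving out an array. They were 11 higher with quantile normalization and 10 higher with the authors' ratios.

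Of 374 pairs of a named gene and an alternative, 13 changed sign, none with a call. With the slide block these were Mrps15 (-0.035), Mrpl44 (0.018), Mrps14 (0.029) and Mrpl2 (0.019), with quantile normalization Mrps21 (0.012), and with the mean of the probes Mrpl40 (-0.062) and Mrpl35 (0.018). The others came from leaving out pre-heartbeat replicate 2 or post-heartbeat replicate 1 or 3, where the ranges over the left-out arrays were -0.073 to 0.050 for Mrpl44, -0.147 to 0.084 for Mrps14, -0.100 to 0.048 for Mrpl35 and -0.093 to 0.026 for Mrps21. The median of the assembly factors was 0.0038 with the slide block and -0.065 with quantile normalization. On leaving out an array, list medians ran from -0.083 to 0.031 for assembly factors, -0.139 to -0.033 for mitochondrial DNA expression, -0.085 to 0.091 for oxidative phosphorylation, -0.30 to -0.029 and -0.27 to -0.015 for the cytosolic large and small subunit and -0.146 to 0.039 for subunits with other names. The cause of these shifts was not tested.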
